A study of Homo sapiens with 6 samples.

Results

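The 44 genes described here encode subunits of the oxidative phosphorylation machinery. They comprise the 13 mRNAs of the mitochondrial genome and 31 subunits encoded in the nucleus, taken by symbol from a table of read counts for 60664 gene IDs. All 44 were among the 16102 genes with enough counts to be tested. The cells were HCT-8, an established human colorectal cancer line kept in DMEM with fetal bovine serum. They had been transfected with a hairpin plasmid against PNISR (shPNISR) or with a control plasmid (shNC), and RNA from 3 libraries per group was sequenced. The series asks how PNISR, a serine and arginine rich nuclear protein, affects alternative splicing; only counts per gene were analysed here. The labels name a single shPNISR plasmid and do not say that libraries came from separate cultures, so each p-value reflects spread among these 6 samples alone, and that spread may be technical.

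Oxidative phosphorylation passes electrons from NADH (complex I) and succinate (complex II) through complexes III and IV to oxygen, pumps protons out of the mitochondrial matrix, and uses the returning protons to make ATP in complex V. Complexes I, III, IV and V are built from subunits of both genomes, while complex II is wholly nuclear. Mitochondrial mRNAs are cut from long transcripts that run around nearly the whole circular genome, so their levels share a source of synthesis and differ mainly by decay and processing, whereas each nuclear subunit has a promoter of its own.

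PNISR had 313, 333 and 450 counts in shPNISR and 1002, 776 and 943 counts in shNC. Every shPNISR library lay below every shNC library, and the log2 fold change was -1.33 ± 0.15 (SE), with an adjusted p of 8.71e-05 (edgeR quasi-likelihood, two-sided, Benjamini-Hochberg over all tested genes). Library totals ranged from 15049485 to 17977803 counts. On the first principal component of all tested genes, which held 44.8% of the variance, shPNISR libraries lay between 16.9 and 24.6, shNC 1 and shNC 3 at -35.2 and -31.2, and shNC 2 at 0.79, so shNC 2 stood apart from its group. Of 9 epithelial markers 8 were tested, with summed levels of 4847 to 6091 CPM in shPNISR and 4354 to 4978 CPM in shNC. All 8 were fitted above 0, with a median log2 fold change of 0.25. In 3 the shPNISR libraries were higher with no overlap, beside 11.5% of all tested genes. The edgeR fit called 1 higher, beside 2.3% of all tested genes, and DESeq2 and limma voom called 2 each. KRT19 rose (log2 fold change 0.61 ± 0.15, edgeR adjusted p = 0.0365). That call was lost with the GC content and length correction and without shNC 1 or any 1 shPNISR library. KRT20, a keratin of differentiated colon cells, had 23 counts over all libraries. Summed levels of the other marker lists were 33.3 to 43.3 CPM in shPNISR and 28.2 to 45.6 CPM in shNC for fibroblasts (6 of 8 tested), 5.44 to 6.69 CPM in shPNISR and 4.35 to 5.65 CPM in shNC for leukocytes (4 of 6 tested), and 1.41 to 1.66 CPM in shPNISR and 0.717 to 1.49 CPM in shNC for endothelium (1 of 4 tested). The defining markers PTPRC and COL1A2 had 0 counts in all 6 libraries, which allows up to 3 counts over the 6 libraries. LYZ, a leukocyte enzyme, fell, with 1, 5 and 8 counts in shPNISR and 16, 21 and 21 counts in shNC (log2 fold change -2.05 ± 0.51, edgeR adjusted p = 0.0337), a call lost with library totals and without any 1 shPNISR library. The other 3 tested leukocyte markers were fitted above 0 and none passed, and the median of the 4 was 0.39. The part of these markers in the results below was not tested.

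The mitochondrial genes lie end to end on a circular genome, and some share bases. This matters for reading their counts, because a read in the shared stretch belongs to both genes. The ends of 2 genes are shown for this reason, from GENCODE release 29 (GRCh38, chrM:8497-8572 and chrM:10730-10766, plus strand), with the bases that the next gene also holds in capitals. The 46 shared bases of MT-ATP8 are the start of MT-ATP6, and the 7 shared bases of MT-ND4L are the start of MT-ND4; each capital stretch begins with the ATG start codon of the second gene.
MT-ATP8: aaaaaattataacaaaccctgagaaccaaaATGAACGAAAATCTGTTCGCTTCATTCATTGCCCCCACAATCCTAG
MT-ND4L: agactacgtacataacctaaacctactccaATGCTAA

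All 13 mitochondrial mRNAs had a fitted value below 0 with shPNISR, yet none passed the adjusted threshold of 0.05. Their median log2 fold change was -0.35, beside -0.01 for all tested genes and 0.05 for the 31 nuclear subunits. Among all tested genes 52.1% were fitted below 0, and 3.14% passed, 0.832% as lower. For 8 of the 13 the unadjusted p was under 0.05, a mark reached with a lower value by 7.8% of all tested genes; the 8 share libraries and, except for MT-ND6 on the other strand, long common transcripts, and are not independent. DESeq2 called 1 of the 13, MT-ATP6, and limma voom called 0. Adjusted p-values by edgeR's quasi-likelihood test ran from 0.0816 for MT-ATP6 to 0.631 for MT-ND5. In bulk RNA, fewer cells that carry a transcript and less of it per cell cannot be told apart.

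**Figure D1:**
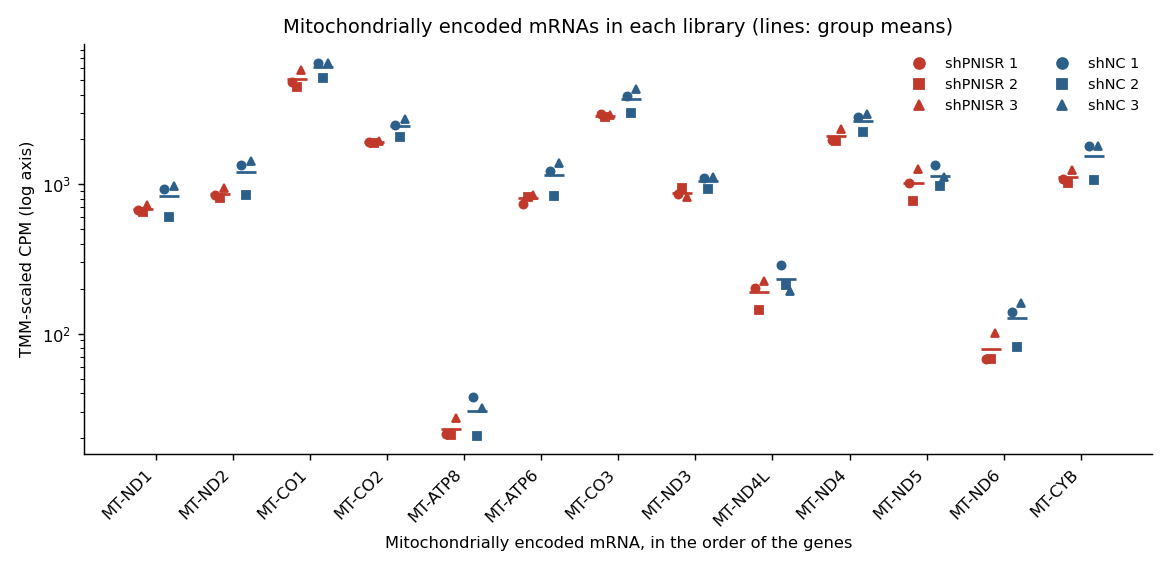
Level of each mitochondrially encoded mRNA in each library, in TMM-scaled CPM on a log axis, with genes in their order along the mitochondrial genome; markers are libraries, red for shPNISR and blue for shNC, and lines are group means. In all 13 genes the red mean lies below the blue one, and the blue square, shNC 2, lies among or near the red markers in most genes.

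Complex I takes electrons from NADH, and its 7 mitochondrial subunits form the core of the membrane arm that pumps protons. Their log2 fold changes ran from -0.69 to -0.17. MT-ND6, the only mRNA read from the opposite strand to the other 12, had 67.2, 67.7 and 100.8 CPM in shPNISR and 139.9, 80.9 and 160.6 CPM in shNC. The shNC 2 value lay inside the shPNISR range, so the groups overlapped. The log2 fold change was -0.69 ± 0.29 (SE), and the adjusted p of 0.281 by edgeR did not pass. MT-ND5, a proton-pumping subunit, had 1028, 769 and 1260 CPM in shPNISR against 1347, 979 and 1113 CPM in shNC. The groups overlapped widely, and its log2 fold change of -0.17 ± 0.16 was the closest to 0 of the 13 mRNAs. The other 5 subunits, MT-ND1, MT-ND2, MT-ND3, MT-ND4 and MT-ND4L, lay between -0.49 and -0.27, with adjusted p-values from 0.119 to 0.432 by the same test, and all 5 had overlapping groups.

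MT-CYB, the cytochrome b that carries both heme groups of the membrane part of complex III, had 1092, 1021 and 1246 CPM in shPNISR and 1803, 1067 and 1807 CPM in shNC. Libraries shNC 1 and shNC 3 lay far above the shPNISR range and shNC 2 lay within it. The log2 fold change was -0.48 ± 0.17 (edgeR adjusted p = 0.158).

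Complex IV passes electrons to oxygen, and its 3 mitochondrial subunits form the catalytic core. MT-CO3, a core subunit without a metal centre, had 2956, 2822 and 2898 CPM in shPNISR and 3897, 2995 and 4325 CPM in shNC. Here the groups did not overlap, but shNC 2 exceeded the highest shPNISR library only slightly (log2 fold change -0.37 ± 0.14, edgeR adjusted p = 0.156). MT-CO2, which holds the first copper site to accept electrons, had 1919, 1899 and 1945 CPM in shPNISR against 2512, 2081 and 2762 CPM in shNC; it is named after its values were seen. Its groups did not overlap either, and the 3 shPNISR libraries were close together (log2 fold change -0.35 ± 0.13, edgeR adjusted p = 0.142). These 2 mRNAs were the ones without overlap among the 13, against 9.58% of all tested genes that were lower with no overlap. MT-CO1, the subunit where oxygen is reduced, had 4854, 4517 and 5822 CPM in shPNISR and 6541, 5157 and 6537 CPM in shNC. Its groups overlapped through shNC 2, and its log2 fold change was -0.26 ± 0.14 (edgeR adjusted p = 0.335).

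Complex V has 2 mitochondrial subunits, both in the membrane part. MT-ATP6, which forms the proton channel, had 733, 824 and 855 CPM in shPNISR and 1220, 838 and 1385 CPM in shNC. Its shNC 2 level lay inside the shPNISR range and the other shNC libraries lay well above it. The log2 fold change was -0.51 ± 0.15, with the smallest adjusted p of the 13 (0.0816, edgeR). MT-ATP8, a small stalk subunit, had 21.1, 21.0 and 27.2 CPM in shPNISR and 37.8, 20.7 and 31.8 CPM in shNC. The lowest of the 6 values was shNC 2, and the log2 fold change was -0.38 ± 0.19 (edgeR adjusted p = 0.309).

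Both genes lie on 1 mRNA and share the 46 bases printed in capitals, which are 22.2% of MT-ATP8. Per length, MT-ATP8 counts were 0.0947, 0.0838 and 0.105 of MT-ATP6 counts in shPNISR and 0.102, 0.0812 and 0.0755 in shNC. The groups overlapped in this ratio. For MT-ND4L and MT-ND4, also on 1 mRNA, the ratio per length was 0.473, 0.345 and 0.440 in shPNISR and 0.479, 0.436 and 0.306 in shNC, again with overlap. Genes on the same mRNA thus had unequal counts per length in every library.

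In most of the 13 mRNAs the groups overlapped through shNC 2. Library shNC 1 was above all 3 shPNISR libraries in 13 of the 13 mRNAs, shNC 3 in 11 and shNC 2 in 2. In 9 mRNAs shNC 2 lay within the shPNISR range, and in 2, MT-ND1 and MT-ATP8, below it. Relative to each gene's mean over the 6 libraries, the median of the 13 on the log2 scale was -0.20, -0.30 and -0.05 in shPNISR 1 to 3, and 0.32, -0.15 and 0.34 in shNC 1 to 3. With shNC 2 left out, 9 of the 13 passed as lower, beside 4.52% of the 16500 genes tested in that fit. Leaving out any other library gave 0 of the 13. Calls over all genes also rose without shNC 2, from 371 higher and 134 lower to 1284 and 746. Because shNC 2 was the library that lay in the shPNISR range, that fit is no separate support for a fall. The 9 were MT-ND1, MT-ND2, MT-ND4, MT-ND6, MT-CYB, MT-CO2, MT-CO3, MT-ATP6 and MT-ATP8. Their log2 fold changes in that fit ran from -0.94 for MT-ND6 (edgeR adjusted p = 0.00169) to -0.46 for MT-ND4 (adjusted p = 0.0298).

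**Figure D2:**
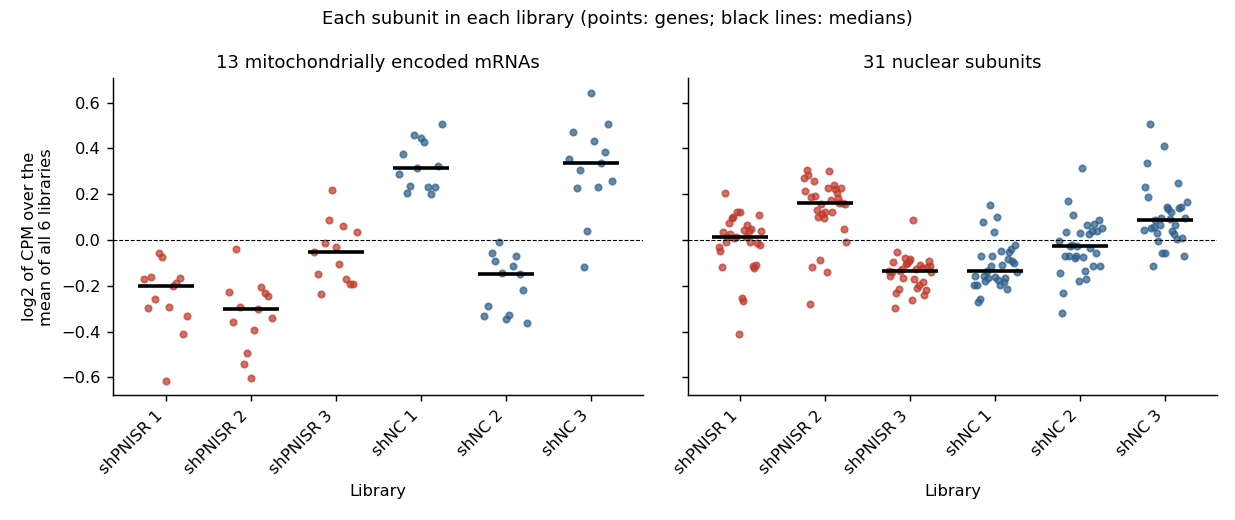
Level of each subunit in each library as the log2 ratio to its mean over all 6 libraries, for the 13 mitochondrially encoded mRNAs (left) and the 31 nuclear subunits (right); points are genes and black lines are medians. On the left shNC 2 has a median of -0.15, beside -0.05 to -0.30 in shPNISR, while shNC 1 and shNC 3 have 0.32 and 0.34; on the right the medians of the 2 groups interleave.

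Per length, the most abundant members were mitochondrial mRNAs, while others of the 13 lay below the highest nuclear subunit. In shPNISR the highest level was 3689 ± 85.8 CPM per kb for MT-CO3, followed by 3284 ± 439 for MT-CO1, 2809 ± 33.8 for MT-CO2 and 2523 ± 177 for MT-ND3 (mean ± SD, n = 3). In shNC the order was the same, with 4769 ± 866, 3942 ± 517, 3584 ± 503 and 3048 ± 324 CPM per kb; there, each step between neighbours was smaller than the sum of their SDs. The lowest of the 13 was MT-ATP8, at 112 ± 17.3 in shPNISR and 145 ± 41.9 CPM per kb in shNC. The median was 981 CPM per kb in shPNISR and 1366 in shNC for the 13 mRNAs, and 156 in shPNISR and 149 in shNC for the 31 nuclear subunits. Among nuclear subunits ATP5F1B was highest, at 878 ± 61.1 in shPNISR and 849 ± 60.9 CPM per kb in shNC.

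Summed over the 13 mRNAs, the level was 17252, 16434 and 19230 CPM in shPNISR and 23986, 18051 and 24801 CPM in shNC. The shNC 2 sum lay between those of shPNISR 1 and shPNISR 3. The 31 nuclear subunits summed to 7060, 7647 and 6346 CPM in shPNISR and 6467, 7069 and 7100 CPM in shNC, so the groups interleaved. The mitochondrial sum was 2.44, 2.15 and 3.03 times the nuclear sum in shPNISR, against 3.71, 2.55 and 3.49 times in shNC (mean 2.54 ± 0.449 in shPNISR and 3.25 ± 0.614 in shNC, SD, n = 3). Within complexes the mean of this ratio was 5.38 ± 1.10 in shPNISR and 6.82 ± 1.37 in shNC for complex I, and 0.819 ± 0.157 in shPNISR and 1.14 ± 0.338 in shNC for complex III. It was 6.57 ± 1.36 in shPNISR and 8.15 ± 1.25 in shNC for complex IV, and 0.322 ± 0.0447 in shPNISR and 0.473 ± 0.131 in shNC for complex V. All 4 means were lower in shPNISR, and in all 4 complexes the groups overlapped. The 13 mRNAs took 1.69, 1.61 and 2.00% of all counts in shPNISR and 2.42, 1.80 and 2.48% in shNC.

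**Figure D3:**
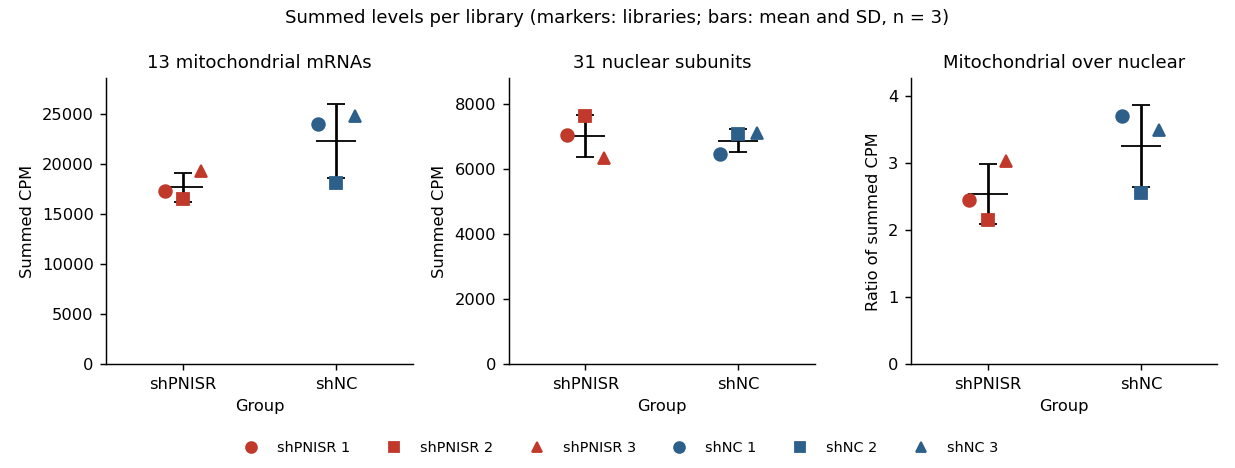
Summed TMM-scaled CPM of the 13 mitochondrial mRNAs, of the 31 nuclear subunits, and the ratio of the first to the second, in each library; markers are libraries and bars are the mean and SD of 3 libraries. The mitochondrial sum averages 17639 CPM in shPNISR and 22279 CPM in shNC, with shNC 2 at 18051 CPM, while the nuclear sums overlap throughout.

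The composition of the mitochondrial mRNA pool overlapped between the groups for all 13 genes. MT-CO1 was the largest part, at 28.6 ± 1.46% of the 13 mRNAs' counts in shPNISR and 27.4 ± 1.11% in shNC (SD, n = 3). MT-ND6 took 0.389, 0.412 and 0.524% in shPNISR and 0.583, 0.448 and 0.648% in shNC. Its share was highest in shNC 1 and shNC 3, and shNC 2 lay within the shPNISR range.

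Mitochondrial RNAs other than mRNAs had few counts. How RNA was selected is not given, so these counts do not show how abundant the RNAs were in the cells. The 12S ribosomal RNA gene MT-RNR1 had 1, 5 and 4 counts in shPNISR and 1, 5 and 1 counts in shNC, too few to be tested. The 16S gene MT-RNR2 had 20, 20 and 22 counts in shPNISR and 11, 20 and 10 counts in shNC (log2 fold change 0.56 ± 0.38, edgeR adjusted p = 0.461). Thus both rRNAs had far fewer counts than the mRNAs in every library. The fitted value of MT-RNR2 was above 0, but at 10 to 22 counts per library its sign is uncertain. Of 22 tRNA genes 3 were tested and none passed by edgeR, DESeq2 or limma voom, with 1 at an unadjusted p under 0.05 by edgeR. MT-TQ had 25, 34 and 49 counts in shPNISR and 82, 30 and 72 counts in shNC, and MT-TP had 29, 40 and 29 in shPNISR and 52, 22 and 41 in shNC. The 8 tRNA genes on the strand of MT-ND6 held 84, 115 and 119 counts in shPNISR and 189, 81 and 190 in shNC. These counts are not scaled for library size, and shNC 2 lay near shPNISR 1. The 14 on the other strand held 5, 11 and 7 in shPNISR and 7, 3 and 6 in shNC. Without a stated strand setting, reads from the 2 strands of the genome cannot be separated.

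Nuclear copies of mitochondrial genes on chromosome 1 also received reads, and reads may be split between a gene and its copy. MTATP6P1 held 19.1, 19.1 and 20.8% as many counts as MT-ATP6 in shPNISR and 18.9, 18.7 and 17.2% in shNC. This share did not overlap between the groups, at 19.07% or more in shPNISR and 18.91% or less in shNC, and was not tested. MTND2P28 held 9.10, 7.14 and 8.18% as many as MT-ND2 in shPNISR and 8.92, 8.67 and 7.84% in shNC, with overlap. Their log2 fold changes were -0.40 ± 0.15 and -0.54 ± 0.17, near those of MT-ATP6 and MT-ND2, and neither passed by edgeR (adjusted p = 0.163 and 0.104).

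Of the 31 nuclear subunits 1 fell, UQCRC2, and 0 rose. The background was 0.832% of tested genes called lower and 2.3% called higher. DESeq2 and limma voom also called 1 lower and 0 higher, and no nuclear subunit was higher at an unadjusted p under 0.05. Fitted values were above 0 for 20 and below 0 for 11. Without UQCRC2 the log2 fold changes ran from -0.23 to 0.17, and SEs over the 31 ran from 0.11 to 0.30. The nuclear subunits also varied together among replicates: shPNISR 2 exceeded the other shPNISR libraries in 24 of the 31, and shPNISR 3 lay below them in 27.

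**Figure D4:**
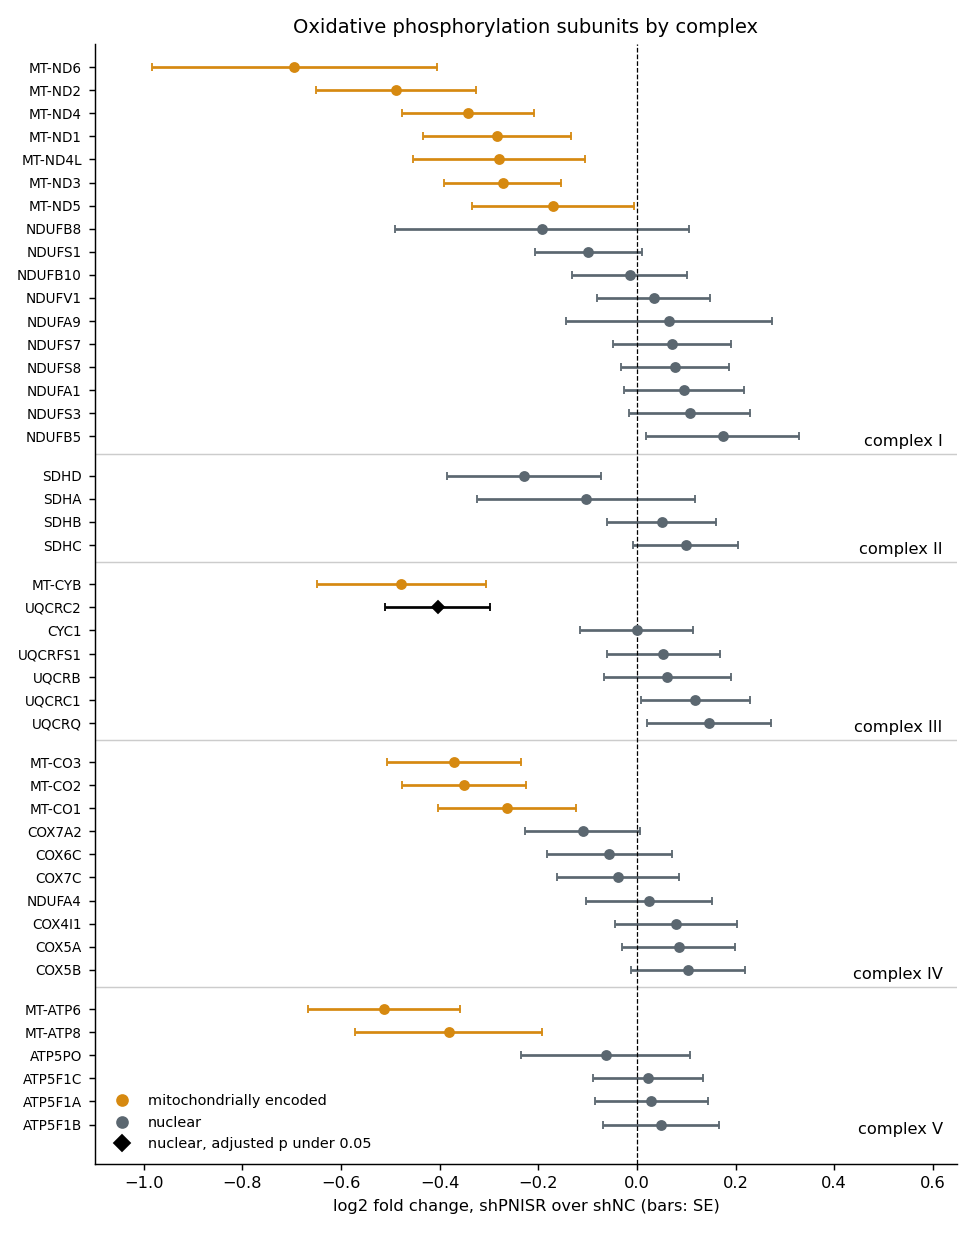
Log2 fold change of shPNISR over shNC with its SE for all 44 members, arranged by complex, with mitochondrially encoded members in orange and nuclear members in grey; the black diamond passed an adjusted p of 0.05. All 13 orange points lie below 0, the grey points scatter between -0.23 and 0.17, and UQCRC2 is the one diamond, at -0.40.

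UQCRC2, a core protein of the matrix side of complex III, had 170.1, 184.0 and 169.0 CPM in shPNISR and 217.1, 251.6 and 223.6 CPM in shNC. Every shPNISR library lay below every shNC library, and the highest value was that of shNC 2. The means were 174 ± 8.39 CPM in shPNISR and 231 ± 18.3 CPM in shNC (SD, n = 3). The log2 fold change was -0.40 ± 0.11 (SE; edgeR quasi-likelihood test, two-sided, adjusted p = 0.0454), so the fitted level fell by 24.4%. The call held in 8 of 17 alternative settings, with adjusted p-values from 0.0144 to 0.224, and it was lost when shNC 1, shNC 3 or any of the shPNISR libraries was left out. The log2 fold change stayed between -0.45 and -0.34 in all 17.

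UQCRC1, the partner core protein, had 413.8, 413.2 and 358.4 CPM in shPNISR and 339.7, 387.5 and 365.0 CPM in shNC (log2 fold change 0.12 ± 0.11, edgeR adjusted p = 0.615). The ratio of UQCRC2 to UQCRC1 counts was 0.411, 0.445 and 0.471 in shPNISR and 0.639, 0.649 and 0.613 in shNC. This ratio did not overlap between the groups; it was computed after the values of UQCRC2 were seen and has no test. UQCRQ, a small subunit of complex III, had 217.3, 259.8 and 187.3 CPM in shPNISR and 184.0, 192.0 and 224.6 CPM in shNC, with wide overlap (log2 fold change 0.15 ± 0.13, edgeR adjusted p = 0.580). CYC1, the cytochrome c1, was at -0.00033, the iron-sulfur protein UQCRFS1 at 0.05 and UQCRB at 0.06.

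**Figure D5:**
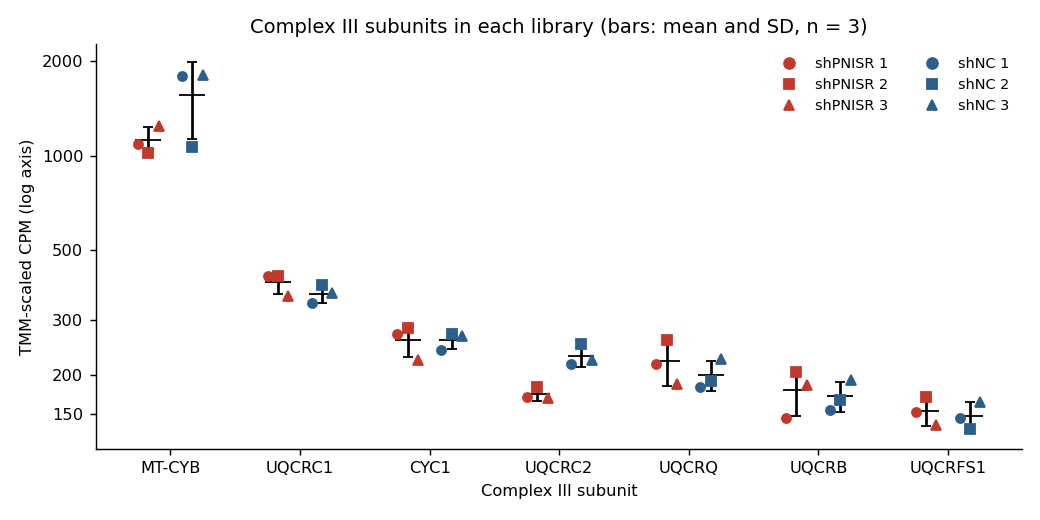
Level of the 7 complex III members in each library, in TMM-scaled CPM on a log axis; markers are libraries, red for shPNISR and blue for shNC, and bars are the mean and SD of 3 libraries. UQCRC2 is the one nuclear member whose red and blue markers do not overlap, at 169 to 184 CPM in shPNISR and 217 to 252 CPM in shNC.

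The 250 bases before the RefSeq starts of these 2 partner genes are shown because one passed the test and the other did not, with matches to the searched motifs in capitals (RefSeq, GRCh38.p14; UQCRC2 at chr16:21953111-21953360 on the plus strand and UQCRC1 at chr3:48609647-48609896 on the minus strand). The starts are those of RefSeq; both windows lie within the extent that GENCODE release 29 gives these genes, whose outermost starts are further upstream. The motifs, searched on both strands, are known to recur at promoters of respiratory genes: NRF1 as GCGC, any base, TGCGC, ETS as CCGGAAG, YY1 as AAGATGGCG and SP1 as GGGCGG.
UQCRC2: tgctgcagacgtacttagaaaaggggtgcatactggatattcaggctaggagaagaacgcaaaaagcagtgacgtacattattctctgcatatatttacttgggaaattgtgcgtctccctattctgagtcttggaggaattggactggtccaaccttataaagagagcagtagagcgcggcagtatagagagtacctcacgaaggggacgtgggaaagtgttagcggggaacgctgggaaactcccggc
UQCRC1: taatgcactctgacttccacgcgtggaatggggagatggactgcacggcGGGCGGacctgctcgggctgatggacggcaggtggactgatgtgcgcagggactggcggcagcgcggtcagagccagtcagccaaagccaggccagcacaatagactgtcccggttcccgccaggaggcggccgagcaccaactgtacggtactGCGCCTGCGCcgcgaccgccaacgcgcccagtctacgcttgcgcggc

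The UQCRC1 window held an SP1 match starting at -201 and an NRF1 match starting at -47, and the UQCRC2 window held none of the 4 motifs. UQCRC2 was not alone in this: some uncalled nuclear subunits with windows also held none of the 4. Windows were found for 24 of the 31 nuclear subunits, 28 windows in all. The NRF1 motif was in 7 of these (25%) and in 5.07% of all 35116 windows, the ETS motif in 8 (28.6%) and in 8.52% of all, the SP1 motif in 18 (64.3%) and in 42.6% of all, and the YY1 motif in 0 and in 0.652% of all. These matches describe letters in the windows and no binding was measured.

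In complex I, the 10 nuclear members had a median log2 fold change of 0.07 and none passed. NDUFB5, an accessory subunit of the membrane arm, had 24.7, 29.4 and 22.5 CPM in shPNISR and 20.0, 20.6 and 27.5 CPM in shNC (log2 fold change 0.17 ± 0.16, edgeR adjusted p = 0.595). NDUFB8, another accessory subunit of that arm, had 2.42, 1.73 and 1.71 CPM in shPNISR and 1.76, 2 and 2.99 CPM in shNC (log2 fold change -0.19 ± 0.30, adjusted p = 0.785). Both overlapped between the groups. The subunits that bind iron-sulfur clusters or flavin and carry the electrons, NDUFS1, NDUFS7, NDUFS8 and NDUFV1, lay between -0.10 and 0.08. The remaining 4, NDUFA1, NDUFA9, NDUFB10 and NDUFS3, lay between -0.01 and 0.11.

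Complex II, also an enzyme of the citric acid cycle, had a median of -0.03 over 4 members and no call. SDHC, a membrane anchor, had 244.5, 243.1 and 209.7 CPM in shPNISR and 214.1, 220.6 and 216.2 CPM in shNC (log2 fold change 0.10 ± 0.11, edgeR adjusted p = 0.669). SDHD, the other anchor, had 41.9, 59.5 and 52.2 CPM in shPNISR and 57.0, 49.2 and 73.8 CPM in shNC (log2 fold change -0.23 ± 0.16, adjusted p = 0.472), with overlap. SDHB, the iron-sulfur subunit, was at 0.05, and SDHA, the flavin subunit that oxidises succinate, at -0.10.

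In complex IV the 7 nuclear members had a median of 0.02 and none passed. COX5B, which binds zinc, had 148.0, 164.8 and 131.3 CPM in shPNISR and 123.3, 146.9 and 143.5 CPM in shNC (log2 fold change 0.10 ± 0.12, edgeR adjusted p = 0.685). COX7A2, a small membrane subunit, had 151.4, 184.0 and 139.5 CPM in shPNISR and 159.0, 172.6 and 181.1 CPM in shNC (log2 fold change -0.11 ± 0.12, adjusted p = 0.667). Both overlapped, and COX4I1, COX5A, COX6C, COX7C and NDUFA4, a subunit first counted to complex I, lay between -0.06 and 0.08.

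In complex V the 4 nuclear members had a median of 0.03 and none passed. ATP5F1B, the catalytic beta subunit, had 1710, 1643 and 1491 CPM in shPNISR and 1482, 1689 and 1511 CPM in shNC (log2 fold change 0.05 ± 0.12, edgeR adjusted p = 0.868). ATP5PO, the stalk protein that joins the head to the membrane part, had 10.1, 9.78 and 8.94 CPM in shPNISR and 8.93, 10.2 and 11.038 CPM in shNC (log2 fold change -0.06 ± 0.17, adjusted p = 0.885). Both overlapped, and the alpha subunit ATP5F1A and the gamma subunit ATP5F1C were at 0.03 and 0.02.

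Some members had low levels per length: 2.92 CPM per kb for NDUFB8 in shPNISR and 3.36 in shNC, 1.54 in shPNISR and 1.65 in shNC for SDHA, 10.3 in shPNISR and 10.8 in shNC for ATP5PO, and 1.00 in shPNISR and 0.962 in shNC for NDUFA9, whose transcript model exceeds 5 kb. Another gene's exons on the same strand cover 33.8% of NDUFB8 exon bases and 19.6% of those of ATP5PO. Such overlap was not particular to low members. It also covers 19.6% of NDUFS3, which had 142.8 CPM per kb in shPNISR and 132.6 in shNC. SDHA has close copies. Of these, SDHAP1, SDHAP3 and SDHAP4 together held 351, 380 and 444 counts in shPNISR and 583, 370 and 478 counts in shNC. Reads in such stretches or copies can be dropped or split when counted, and the part of this in the levels was not tested.

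Genes around the 44 members gave few calls. Of the other subunits, 27 of complex I, 3 of complex III, 5 of complex IV and 12 of complex V were tested, and 0 passed by edgeR, DESeq2 or limma voom, nor at an unadjusted p under 0.05; medians were 0.05, -0.01, 0.07 and -0.0021. Among the most abundant of them were NDUFB9 (0.20) in complex I, UQCRH (-0.01) and UQCR10 (0.11) in complex III, COX6B1 (0.07) and COX7A2L (-0.06) in complex IV, and ATP5MC3 (-0.0021) and ATP5PB (-0.07) in complex V. Of 46 tested assembly factors 1 fell, beside 0.832% of all tested genes called lower and 9.58% lower with no overlap. SCO1, which delivers copper to complex IV, had 1024, 884 and 872 counts in shPNISR and 1567, 1177 and 1299 counts in shNC, with no overlap in CPM, at 56.2 ± 3.80 CPM in shPNISR and 82.9 ± 5.94 CPM in shNC (SD, n = 3). Its log2 fold change was -0.56 ± 0.11 (edgeR adjusted p = 0.00957), and the call held in 15 of 17 alternatives, the exceptions being without shNC 1 and without shPNISR 3 (adjusted p = 0.0574 and 0.0570).

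Of 7 tissue-restricted isoforms 2 were tested and 1 rose, beside 2.3% of all tested genes called higher. Both were fitted above 0 and higher with no overlap, a mark reached by 11.5% of all tested genes. The isoform that did not pass had a log2 fold change of 1.31 (edgeR adjusted p = 0.110). COX6B2, the testis form of a complex IV subunit, had 32, 23 and 21 counts in shPNISR and 4, 5 and 6 counts in shNC, without overlap. A neighbouring gene on the same strand covers 30.9% of its exon bases and had 0 counts. The log2 fold change was 2.28 ± 0.42 (edgeR adjusted p = 0.00475), and it passed in all 16 alternatives that tested it. Its level stayed low, at 1.53 ± 0.318 CPM in shPNISR and 0.314 ± 0.0896 CPM in shNC, beside 160 ± 22.5 CPM in shPNISR and 152 ± 9.44 CPM in shNC for COX6B1, the common form.

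Genes for transcription, processing and translation of mitochondrial RNA gave 0 calls among 39 tested by edgeR, DESeq2 and limma voom, and 3 at an unadjusted p under 0.05, all lower. Their median log2 fold change was -0.15, and 35 of the 39 were fitted below 0, beside 52.1% of all tested genes. LRPPRC, which binds and stabilises mitochondrial mRNAs, had 217 ± 18.1 CPM in shPNISR and 253 ± 3.23 CPM in shNC (log2 fold change -0.22 ± 0.11, edgeR adjusted p = 0.278). TUFM, the mitochondrial elongation factor, had 453 ± 32.1 CPM in shPNISR and 416 ± 22.2 CPM in shNC (log2 fold change 0.12 ± 0.11). Of 75 tested mitochondrial ribosomal proteins 0 passed by the 3 tools (2 lower and 3 higher at an unadjusted p under 0.05; median 0.01; MRPL37 0.05 and MRPL3 -0.04). Of 18 citric acid cycle genes 0 passed by the 3 tools and 0 at an unadjusted p under 0.05 (median 0.02; MDH2 0.19 and CS 0.05). Of 10 regulators of mitochondrial biogenesis 0 passed by the 3 tools and 1 was higher at an unadjusted p under 0.05 (median -0.12; MYC 0.05 and YY1 -0.18).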

How the data were processed

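RNA of 6 HCT-8 libraries was measured as deposited whole-number read counts per Ensembl gene ID, which the authors did not normalize, as the values show. HISAT2 2.0.4 and GRCh38 are named per the submitters' processing notes. Not given in the sources used here are the counting tool, its annotation and strand setting, and how RNA was selected. Columns were matched to libraries by title. Members and gene lists were chosen with earlier results of these data known.

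The filterByExpr function of edgeR 4.0.16 (R 4.3.3) kept 16102 genes, at a minimum count of 10 and a minimum total of 15, and libraries were scaled by TMM. The main test was edgeR's robust quasi-likelihood fit of shPNISR against shNC, two-sided, with Benjamini-Hochberg adjustment across every tested gene and a threshold of 0.05. SEs come from the fold change and the F statistic. CPM are TMM-scaled; CPM per kb uses the shortest principal transcript of GENCODE release 29. Sampling noise alone did not account for the differences between replicates, and all 6 libraries were kept. The floor of 3 counts given for genes with 0 counts covers counting error only. SEs and SDs also hold the spread among libraries.

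Named were every called member, the largest and smallest log2 fold change per complex and genome, MT-ND6, MT-ATP8, the mitochondrial rRNAs, PNISR, and per list up to 4 called genes or the 2 most abundant; other names were added after values were seen. A gene that this rule also names is not reported here. The 17 alternatives changed the scaling (upper-quartile factors, DESeq2 size factors, TMM without the mitochondrial genome, library totals), the filter (none, or a mean CPM of at least 1), the tool (limma voom 3.58.1, DESeq2 1.42.0), the dispersion (not robust) or the design (replicate block), corrected GC content and length by loess (span 0.4), or left out 1 library. On data simulated with 3 libraries per group, the fit called 98 of 100 changes of 2-fold and 64 of 100 changes of 1.5-fold. It also called 12 unchanged genes among 15852 genes. Smaller changes were not simulated. Changes were placed only above a minimum mean CPM, which NDUFB8 and SDHA do not reach. Libraries were drawn independently, so a library that stands apart, as shNC 2 does, was not simulated. Motifs were searched in RefSeq promoter windows (GRCh38.p14), and figures drawn with matplotlib 3.10.9.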

Additional observations from a re-analysis of the deposited data

How the results depend on the processing

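All 13 mitochondrial mRNAs stayed below 0 under all 17 alternatives, with a median log2 fold change between -0.47 and -0.27 when 1 library was left out, and 0 nuclear members were called higher under any (edgeR, DESeq2 and limma voom; 0 at an unadjusted p under 0.05 in the edgeR fit of all libraries). The count of mitochondrial mRNAs called lower, 0 in the fit reported, was 1 with DESeq2 (MT-ATP6), 1 with the GC content and length correction (MT-ATP6), 5 with no low-count filter and 0 to 9 when 1 library was left out, with 9 only without shNC 2. The 1 nuclear call, UQCRC2, was lost (0 calls) with upper-quartile factors (adjusted p = 0.0623), no robust dispersion (0.0561), the GC correction (0.0511), and without shNC 1 (0.106), shNC 3 (0.0520), shPNISR 1 (0.224), shPNISR 2 (0.0627) or shPNISR 3 (0.110). The median of the nuclear members was -0.02 with the GC correction and -0.05 to 0.10 when 1 library was left out; the cause was not tested. Over all tested genes, 371 higher and 134 lower calls became 642 and 354 with no low-count filter, 477 and 229 with DESeq2, and 275 and 71 with library totals; leaving out 1 library gave 133 to 1284 higher and 30 to 746 lower, with 133 and 30 without shPNISR 1 and 1284 and 746 without shNC 2. Fitted medians of all genes stayed within -0.03 and 0.01.

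The labels do not say that the replicate numbers of the 2 groups pair the samples. Deviations of same-numbered libraries correlated at 0.119, -0.081 and -0.15, and not every library correlated best with its own number. The deviations were centred within small groups, so these correlations cannot decide whether samples were paired. With the replicate number as a block, 390 genes were higher and 118 lower, 1 mitochondrial mRNA was lower (MT-ND6, log2 fold change -0.66, adjusted p = 0.0100) and 0 nuclear members were lower (UQCRC2, -0.40, adjusted p = 0.0681).

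Among the named genes the sign changed in 71 of 1254 values, over 33 genes with reported log2 fold changes from -0.24 to 0.12 and over 9 settings, and 0 of the 71 passed; the cause was not tested. With upper-quartile factors the changed values were NDUFB10 0.0093, ATP5MC3 0.022, UQCRH 0.019 and CYC1 0.023. With a mean of at least 1 CPM the changed values were ATP5MC3 0.0037, UQCRH 0.00030 and CYC1 0.0054. With the GC content and length correction the changed values were UQCRC1 -0.056, NDUFS1 0.046, NDUFS8 -0.060, ATP5F1B -0.033, MRPL3 0.00049, NDUFS7 -0.069, COX7A2L 0.0045, MRPL37 -0.049, NDUFA1 -0.045, COX6B1 -0.096, COX7C 0.027, COX5B -0.025, MYC -0.062, ATP5MC3 0.12, NDUFV1 -0.11, TUFM -0.041, MT-TP 0.00039 and NDUFS3 -0.017. Leaving out 1 library gave ranges of log2 fold change of ATP5F1A -0.055 to 0.091, ATP5F1C -0.060 to 0.080, ATP5MC3 -0.073 to 0.064, ATP5PO -0.15 to 0.0061, COX4I1 -0.037 to 0.18, COX5A -0.019 to 0.15, COX6B1 -0.041 to 0.17, COX6C -0.18 to 0.066, COX7A2L -0.14 to 0.020, COX7C -0.18 to 0.050, CYC1 -0.070 to 0.094, MRPL3 -0.14 to 0.037, NDUFA1 -0.037 to 0.18, NDUFA4 -0.092 to 0.16, NDUFA9 -0.099 to 0.28, NDUFB10 -0.13 to 0.086, NDUFB8 -0.37 to 0.059, NDUFS3 -0.012 to 0.22, NDUFS7 -0.019 to 0.15, NDUFV1 -0.037 to 0.12, SDHB -0.025 to 0.11, UQCRB -0.051 to 0.20, UQCRFS1 -0.031 to 0.13 and UQCRH -0.12 to 0.055. Depth limits NDUFB8, SDHA, NDUFA9, ATP5PO and the mitochondrial rRNAs and tRNAs, whose counts are low.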
